A study of Mus musculus with 9 samples.

Results

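The genes described here encode 9 small leucine-rich proteoglycans: decorin (Dcn), biglycan (Bgn), asporin (Aspn), lumican (Lum), fibromodulin (Fmod), Prelp, osteomodulin (Omd), osteoglycin (Ogn) and podocan (Podn). They were taken by symbol, through the Ensembl identifiers of the deposited tables, and all 9 were found among the 20655 genes listed. The RNA came from 3 populations of stromal cells sorted by flow cytometry from subcutaneous white fat, the inguinal and axillary depots, of C57BL/6 mice aged 12 days. Males and females were mixed, and no allele, transgene or drug treatment was named for any group. The tissue was digested with Collagenase D and Dispase II, and the populations, DPP4+, ICAM1+ and CD142+, are named for the surface protein used to collect them, with 3 libraries of each. CD142 is tissue factor, the starter of blood clotting encoded by F3, while ICAM1 binds leukocyte integrins and DPP4 is a peptidase of the cell surface. The series addressed the order of mesenchymal progenitors in fat, so the comparisons asked how the transcripts of each proteoglycan differed between the populations.

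Small leucine-rich proteoglycans are secreted proteins built of tandem leucine-rich repeats, and most carry chains of chondroitin, dermatan or keratan sulfate. They bind to collagen fibrils and control their width and spacing, and several of them hold growth factors such as TGF-beta in the matrix or bind to receptors on cells. Decorin, biglycan and asporin form one class of the family, and fibromodulin, lumican, Prelp and osteomodulin another. Osteoglycin and podocan belong to further classes.

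The values were fold changes with standard errors for each pair of populations, and the mean normalised count over the 9 libraries, a count divided by the size factor of its library. A level in each population was computed from these and is given with the range of 1 standard error (SE) on either side. Values per library were not used here, so the overlap of single libraries between populations cannot be given, and the depth of each library is unknown. Whether libraries of 1 population stem from different animals is not stated in the labels, so each p reflects only how these libraries spread, possibly for technical reasons. The 3 comparisons share libraries and are not independent of each other. A difference was called where the adjusted p of the deposited DESeq2 Wald test was below 0.05.

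Markers of the sort and of other cell types moved with the populations. Dpp4 had levels of 5466, 89.9 and 729 normalised counts in DPP4+, ICAM1+ and CD142+ cells, Icam1 of 1162, 7966 and 7058, and F3 of 243, 311 and 1469. Icam1 therefore separated DPP4+ cells from both others, but not ICAM1+ from CD142+ cells (adjusted p = 0.631). Of 6 stromal markers all were measured, and their summed level was 28833, 13209 and 16433. Among them Pdgfra and Pdgfrb were called higher, and Cd34, Ly6a and Thy1 lower, in both comparisons against DPP4+ cells, while Eng was not called. The stromal receptor Pdgfra had 2849, 3664 and 4432, and Cd34 had 13820, 3154 and 5095. The summed level of 8 mural markers was 2358, 6688 and 3950, of 6 endothelial markers 1722, 2609 and 1675, of 6 Schwann cell markers 1280, 2699 and 1092, and of 5 adipocyte markers 22.6, 267 and 102. Each of these sums was highest in ICAM1+ cells. In ICAM1+ against DPP4+ cells, 4 mural, 4 endothelial, 5 Schwann cell and 3 adipocyte markers were called higher, beside 12.4% of all genes tested. The mural markers were not uniform, since the pericyte gene Kcnj8 was lower in ICAM1+ than in DPP4+ cells (-2.06) and, with Abcc9, lower than in CD142+ cells (-1.83 and -0.94). In CD142+ against DPP4+ cells the counts of higher markers were 3, 1, 1 and 2, with none called lower. Of all genes tested there, 10.1% were called higher and 8.91% lower. Immune markers, 7 in all, summed to 227, 389 and 275, and 4 mesothelial markers to 13.4, 8.66 and 17.5. No marker of these lists was at 0. The part of these cells in the differences below was not tested. In sorted bulk samples, fewer cells of a type and less RNA per cell cannot be told apart.

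The family as a whole was abundant. Its 9 genes together held 0.628% of all normalised counts over genes in DPP4+ cells, 0.697% in ICAM1+ and 0.923% in CD142+ cells. Dcn ranked 24th of all genes by its mean, Bgn 41st, Lum 84th, Aspn 165th, Ogn 363rd and Prelp 463rd, while Podn (1991st), Fmod (3738th) and Omd (8153rd) were less abundant. Most of the genes lie in groups on the chromosome. Dcn and Lum are 47.0 kb apart on chromosome 10, Prelp and Fmod 116 kb apart on opposite strands of chromosome 1, and Aspn, Omd and Ogn follow each other on the plus strand of chromosome 13 with gaps of 14.9 and 15.2 kb.

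The sequences below are the 250 bases before the RefSeq start in GRCm38.p6, written 5′ to 3′ on the strand of the gene. They are shown for Fmod and Prelp, neighbours whose transcripts differed from DPP4+ cells in opposite directions, for Omd and Ogn, neighbours that were both lowest in ICAM1+ cells, and for Bgn, the abundant member with the widest range. Fmod is from chr1:134037004-134037253 on the plus strand, Prelp from chr1:133921402-133921651 on the minus strand, Omd from chr13:49582212-49582461, Ogn from chr13:49607765-49608014 and Bgn from chrX:73483351-73483600, the last 3 on the plus strand. Capitals mark every match on either strand to the TATA box (written TATAAA), to the GC box bound by Sp1 (GGGCGG), to the box bound by NF-Y (CCAAT), to the site of AP-1 factors (TGANTCA) or to the core of a SMAD site (CAGAC).
Fmod: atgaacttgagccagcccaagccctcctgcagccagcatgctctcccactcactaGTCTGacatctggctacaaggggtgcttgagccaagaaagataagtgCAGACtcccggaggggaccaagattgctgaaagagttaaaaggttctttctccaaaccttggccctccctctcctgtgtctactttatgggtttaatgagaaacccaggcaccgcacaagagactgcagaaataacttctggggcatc
Prelp: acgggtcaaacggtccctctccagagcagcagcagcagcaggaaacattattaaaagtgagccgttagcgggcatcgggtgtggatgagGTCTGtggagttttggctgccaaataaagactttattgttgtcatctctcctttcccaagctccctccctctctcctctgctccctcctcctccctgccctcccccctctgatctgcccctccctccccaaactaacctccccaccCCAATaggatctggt
Omd: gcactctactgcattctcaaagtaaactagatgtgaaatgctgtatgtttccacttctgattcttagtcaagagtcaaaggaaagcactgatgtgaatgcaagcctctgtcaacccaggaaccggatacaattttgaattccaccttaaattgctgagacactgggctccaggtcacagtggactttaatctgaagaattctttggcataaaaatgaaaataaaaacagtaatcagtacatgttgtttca
Ogn: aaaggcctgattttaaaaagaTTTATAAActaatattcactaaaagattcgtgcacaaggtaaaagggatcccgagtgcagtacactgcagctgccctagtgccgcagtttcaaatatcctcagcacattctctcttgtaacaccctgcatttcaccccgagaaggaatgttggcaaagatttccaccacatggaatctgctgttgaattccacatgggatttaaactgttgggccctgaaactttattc
Bgn: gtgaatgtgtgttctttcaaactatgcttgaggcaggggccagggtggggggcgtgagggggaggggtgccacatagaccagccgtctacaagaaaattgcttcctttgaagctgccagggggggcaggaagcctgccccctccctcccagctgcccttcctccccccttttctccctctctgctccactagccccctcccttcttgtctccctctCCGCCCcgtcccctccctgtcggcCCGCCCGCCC

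Bgn had 3 GC boxes, starting 34, 10 and 6 bases before the start, of which the last 2 overlap. Of its bases 64.4% were G or C, beside a median of 52% over 27025 promoters. Fmod had 2 CAGAC cores, at 195 and 148 bases, and Prelp had 1 at 161 bases and a CCAAT box at 15 bases. Ogn had 2 overlapping TATA boxes, 1 on each strand, at 229 and 227 bases, and Omd had no match, which says only that these letters are not in this window. Of the 27025 promoters of the same length, 32.9% held a GC box, 34.5% a CCAAT box, 13.0% a TATA box, 6.87% an AP-1 site and 42.1% a CAGAC core. A match is a description of letters and not a binding site. No promoter sequence was at hand for Dcn and Lum, and those of Aspn and Podn were searched but are not printed.

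Decorin and biglycan, the best known pair of the family, had unlike patterns. Decorin binds collagen and TGF-beta and limits fibril width. Dcn (ENSMUSG00000019929.16, chromosome 10, 97479609 to 97518143, plus strand, mm10) had a level of 33699 normalised counts in DPP4+ cells (32117 to 35358), 25511 in ICAM1+ (24313 to 26768) and 32537 in CD142+ cells (31010 to 34139). ICAM1+ cells were lower than both others, with a log2 fold change of -0.40 ± 0.10 (SE) against DPP4+ (adjusted p = 0.000361) and of -0.35 ± 0.10 against CD142+ (adjusted p = 0.00636). CD142+ and DPP4+ cells were not called different, with a 95% interval of -0.24 to 0.14 for the log2 fold change.

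Biglycan binds collagen and, once released from the matrix, the receptors TLR2 and TLR4. Bgn (ENSMUSG00000031375.17, chromosome X, 73483602 to 73495933, plus strand) had 5354 normalised counts in DPP4+ cells (4994 to 5741), 15077 in ICAM1+ (14066 to 16160) and 31424 in CD142+ cells (29320 to 33678). Each step of this order was called. The log2 fold change was 1.49 ± 0.14 in ICAM1+ against DPP4+ (adjusted p = 3.55e-24), 2.55 ± 0.14 in CD142+ against DPP4+ (adjusted p = 7.36e-70) and -1.06 ± 0.14 in ICAM1+ against CD142+ cells (adjusted p = 1.05e-11). In linear terms Bgn was 2.82-fold higher in ICAM1+ and 5.87-fold higher in CD142+ than in DPP4+ cells. Bgn lies on the X chromosome and the mice were of both sexes, and in ICAM1+ against DPP4+ cells the X-linked Xist differed by 0.68 ± 0.16 and the Y-linked Ddx3y by 0.63 ± 0.15, both higher. In CD142+ against DPP4+ cells Ddx3y was higher by 0.60 ± 0.15 (adjusted p = 0.00077), and Xist was not called (0.27 ± 0.16, adjusted p = 0.289). The part of the sex mix in the values of Bgn was not tested.

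The balance of the pair therefore differed. Per kilobase of merged exons, the level of Dcn was 6.58 times that of Bgn in DPP4+ cells, 1.77 times in ICAM1+ and 1.08 times in CD142+ cells. The order of the pair depends on the length taken for Bgn, whose merged exons span 6.099 kb and whose longest transcript has 2666 bases. In CD142+ cells Bgn had 5152 and Dcn 5573 normalised counts per kb of merged exons, but 11787 and 6935 per kb of the longest transcript, and in ICAM1+ cells the order also turned (2472 and 4370 against 5655 and 5437). In DPP4+ cells Dcn was the higher of the pair with both lengths.

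**Figure D1:**
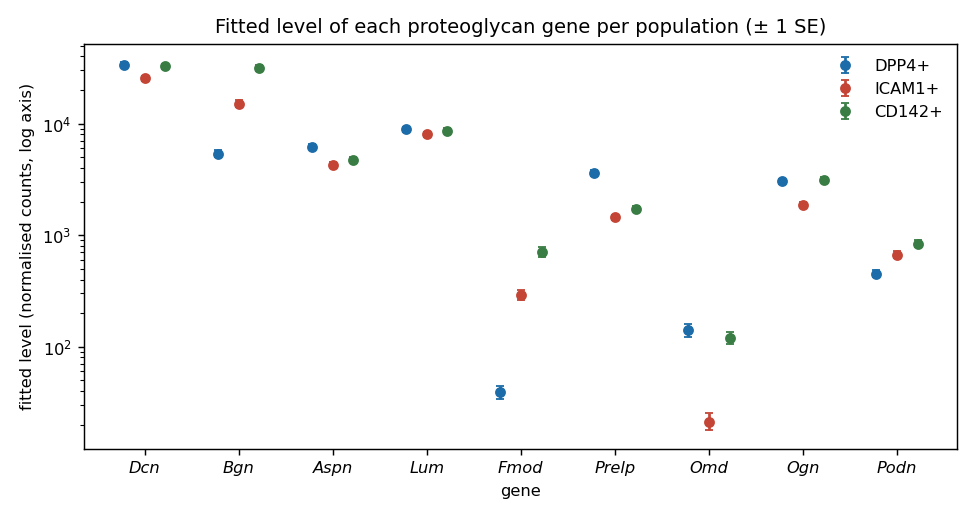
Levels of the 9 proteoglycan genes (normalised counts, log axis) in DPP4+, ICAM1+ and CD142+ cells, fitted over 3 libraries each, with bars of 1 SE. Bgn climbs from 5354 in DPP4+ to 31424 in CD142+ cells and Fmod from 38.9 to 706, whereas Lum stays between 8009 and 8882.

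Asporin, the third member of that class, binds collagen near the decorin site and carries a run of aspartate residues. Aspn (ENSMUSG00000021388.14, chromosome 13, 49544443 to 49567565, plus strand) had 6225 normalised counts in DPP4+ cells (5905 to 6562), 4295 in ICAM1+ (4073 to 4529) and 4741 in CD142+ cells (4497 to 4998). It was lower than in DPP4+ cells in both others, by log2 fold changes of -0.54 ± 0.11 in ICAM1+ (adjusted p = 8.42e-06) and -0.39 ± 0.11 in CD142+ cells (adjusted p = 0.00226). Between ICAM1+ and CD142+ cells no difference was called, with a 95% interval of -0.35 to 0.07. The class thus held a gene lowest in ICAM1+, a gene highest in CD142+ and a gene highest in DPP4+ cells.

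Lumican, the keratan sulfate proteoglycan that spaces the fibrils of the cornea, was the most even member. Lum (ENSMUSG00000036446.5, chromosome 10, 97565128 to 97572703, plus strand) had 8882 normalised counts in DPP4+ (8417 to 9373), 8009 in ICAM1+ (7589 to 8451) and 8652 in CD142+ cells (8200 to 9130). No comparison was called, and the 95% intervals of the log2 fold change were -0.36 to 0.07 for ICAM1+ against DPP4+, -0.25 to 0.18 for CD142+ against DPP4+ and -0.33 to 0.10 for ICAM1+ against CD142+ cells. It was the only member of the 9 with no call. Its neighbour Dcn had a similar order of levels, and the difference between these 2 genes was not tested.

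Fibromodulin, which binds the same collagen site as lumican and restrains the fusion of fibrils in tendon, had the widest range of the family. Fmod (ENSMUSG00000041559.7, chromosome 1, 134037254 to 134048277, plus strand) had 38.9 normalised counts in DPP4+ cells (33.9 to 44.7), 293 in ICAM1+ (263 to 325) and 706 in CD142+ cells (637 to 781). The 3 populations stood in the same order as for Bgn, and each step was called. The log2 fold change was 2.91 ± 0.25 in ICAM1+ against DPP4+ (adjusted p = 5.93e-29), 4.18 ± 0.25 in CD142+ against DPP4+ (adjusted p = 6.22e-61) and -1.27 ± 0.21 in ICAM1+ against CD142+ cells (adjusted p = 1.27e-07). The level in CD142+ cells was 18.1-fold that in DPP4+ cells, and of the 7952 genes averaging 100 or more normalised counts, 7 had a higher fold change in that comparison. Even there Fmod stayed far below Lum, at 213 against 3534 normalised counts per kb of merged exons.

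Fmod is known as a tendon gene. Of the tendon and fascia markers, Tnmd, Scx and Mkx had means of 9.43, 6.73 and 1.45 normalised counts, none of them with a called difference. Thbs4 was lower in CD142+ cells (523) than in DPP4+ (2567) and ICAM1+ cells (2345). Egr1 was called higher than in DPP4+ cells in ICAM1+ (0.68 ± 0.13) and CD142+ cells (0.84 ± 0.13) on the log2 scale. Comp had a mean of 5.44 and was not called. The part of tendon cells in the values of Fmod was not tested. The 6 tendon and fascia markers summed to 15559, 23136 and 23742, most of it the immediate early gene Egr1. Of 6 measured markers of cartilage and bone, 3 were higher in ICAM1+ than in DPP4+ cells (Sox9 0.61, Runx2 1.61 and Alpl 1.80 on the log2 scale), beside 12.4% of all genes tested. In CD142+ against DPP4+ cells 2 were higher (Runx2 1.78 and Alpl 1.71), beside 10.1%. Sox9 had a mean of 535 normalised counts, and Runx2 and Alpl had low means of 24.9 and 45.2. Acan had a mean of 7.06, and Sp7 and Bglap had means of 0.929 and 1.19.

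Prelp, a fibril-binding proteoglycan that also binds heparan sulfate, differed from DPP4+ cells in the opposite direction to its neighbour Fmod. Prelp (ENSMUSG00000041577.5, chromosome 1, 133910304 to 133921414, minus strand) had 3607 normalised counts in DPP4+ cells (3410 to 3816), 1440 in ICAM1+ (1359 to 1525) and 1731 in CD142+ cells (1635 to 1832). It was lower than in DPP4+ cells by a log2 fold change of -1.32 ± 0.12 in ICAM1+ (adjusted p = 2.53e-28) and of -1.06 ± 0.12 in CD142+ cells (adjusted p = 2.09e-18). ICAM1+ against CD142+ cells was not called, with a 95% interval of -0.49 to -0.04 and an adjusted p of 0.161. Per kilobase of merged exons, Prelp was 84.7 times as abundant as Fmod in DPP4+ cells, 4.50 times in ICAM1+ and 2.24 times in CD142+ cells. Of the exon bases of Prelp, 9.68% lie opposite exons of Gm15851. Strand was not stated for the counting, so reads of the pair cannot be told apart there, and Gm15851 had nearly the same values, -1.29 ± 0.14 and -1.07 ± 0.14 against DPP4+ cells.

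Osteomodulin and osteoglycin, neighbours on chromosome 13, were both lowest in ICAM1+ cells. Osteomodulin is an acidic keratan sulfate proteoglycan first found in bone. Omd (ENSMUSG00000048368.9, chromosome 13, 49582462 to 49592822, plus strand) had 140 normalised counts in DPP4+ (123 to 159), 21.2 in ICAM1+ (17.8 to 25.3) and 119 in CD142+ cells (105 to 136). ICAM1+ cells were lower by a log2 fold change of -2.72 ± 0.32 against DPP4+ (adjusted p = 2.63e-16) and of -2.49 ± 0.32 against CD142+ cells (adjusted p = 5.93e-13). This gene had the lowest mean of the 9, 93.5 normalised counts, and the widest errors, and CD142+ against DPP4+ was not called, with a 95% interval of -0.75 to 0.29.

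Osteoglycin, also called mimecan, takes part in fibril assembly. Ogn (ENSMUSG00000021390.6, chromosome 13, 49608046 to 49624501, plus strand) had 3054 normalised counts in DPP4+ (2899 to 3217), 1874 in ICAM1+ (1778 to 1976) and 3142 in CD142+ cells (2984 to 3309). The log2 fold change in ICAM1+ cells was -0.70 ± 0.11 against DPP4+ (adjusted p = 8.74e-10) and -0.75 ± 0.11 against CD142+ (adjusted p = 3.11e-10). CD142+ and DPP4+ cells were not called different, with an interval of -0.17 to 0.25. Per kilobase of merged exons Ogn was 19.1 times as abundant as Omd in DPP4+ cells and 77.5 times in ICAM1+ cells.

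Podocan, a member with an acidic tail that binds collagen and restrains the growth of smooth muscle cells, had a shallower form of the order of Bgn. Podn (ENSMUSG00000028600.15, chromosome 4, 108014791 to 108096445, minus strand) had 450 normalised counts in DPP4+ (417 to 485), 665 in ICAM1+ (619 to 716) and 836 in CD142+ cells (778 to 898). It was higher than in DPP4+ cells by a log2 fold change of 0.57 ± 0.15 in ICAM1+ (adjusted p = 0.0013) and of 0.89 ± 0.15 in CD142+ cells (adjusted p = 4.42e-08). ICAM1+ against CD142+ was not called, with an interval of -0.62 to -0.04 and an adjusted p of 0.176.

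**Figure D2:**
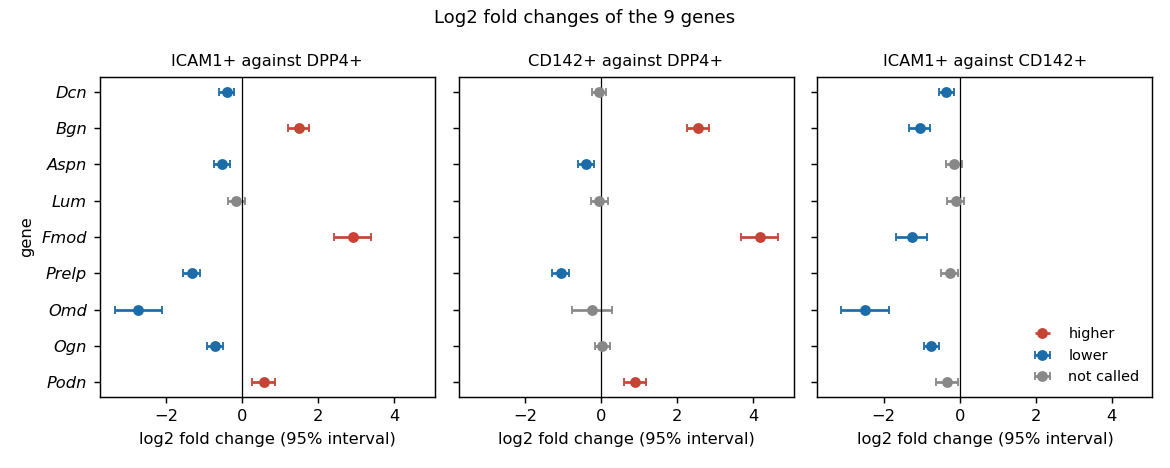
Log2 fold changes of the 9 genes (x axis) in the 3 comparisons, with 95% intervals as bars. Red points were called higher and blue points lower at an adjusted p below 0.05, and grey points were not called. Fmod lies at 2.91 and 4.18 against DPP4+ cells, Omd at -2.72 in ICAM1+ against DPP4+ cells, and no called point lies above 0 in ICAM1+ against CD142+ cells.

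Counted together, 18 of the 27 tests on the 9 genes were called, and 8 genes were called at least once. In ICAM1+ against DPP4+ cells 8 of 9 genes were called, 3 higher and 5 lower, where 24.4% of the 17851 genes tested were called, 12.4% higher and 12% lower. In CD142+ against DPP4+ cells 5 of 9 were called, 3 higher and 2 lower, beside 19% of 17450 genes, 10.1% higher and 8.91% lower. In ICAM1+ against CD142+ cells 5 of 9 were called, 0 higher and 5 lower, beside 9.05% of 15848 genes, 3.77% higher and 5.28% lower. At an unadjusted p below 0.05 in the same Wald test, 0 were higher and 7 lower there, the added genes being Prelp and Podn. Abundant genes were called more often in general, and among the 7952 genes averaging 100 or more the shares called were 37.1%, 28.5% and 13.4%.

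The directions were mixed in both comparisons against DPP4+ cells. The median log2 fold change of the 9 genes was -0.40 in ICAM1+ against DPP4+, -0.04 in CD142+ against DPP4+ and -0.35 in ICAM1+ against CD142+ cells, beside 0.02, -0.01 and -0.00 over all genes tested. Bgn, Fmod and Podn were the members higher in both populations than in DPP4+ cells, and Aspn and Prelp were lower in both. Dcn, Omd and Ogn were lower in ICAM1+ than in both others.

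The make-up of the family therefore differed between the populations. Per kilobase of merged exons, Dcn was 37.8% of the family level in DPP4+ cells, 32.8% in ICAM1+ and 30.2% in CD142+ cells, and Bgn was 5.74%, 18.6% and 27.9%. Lum held 23.7%, 24.6% and 19.2%, and Aspn 17.3%, 13.7% and 10.9%. With the longest transcript as the length, the share of Bgn was 11.2%, 32.1% and 44.5%. These shares are computed from fitted levels and were not tested.

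**Figure D3:**
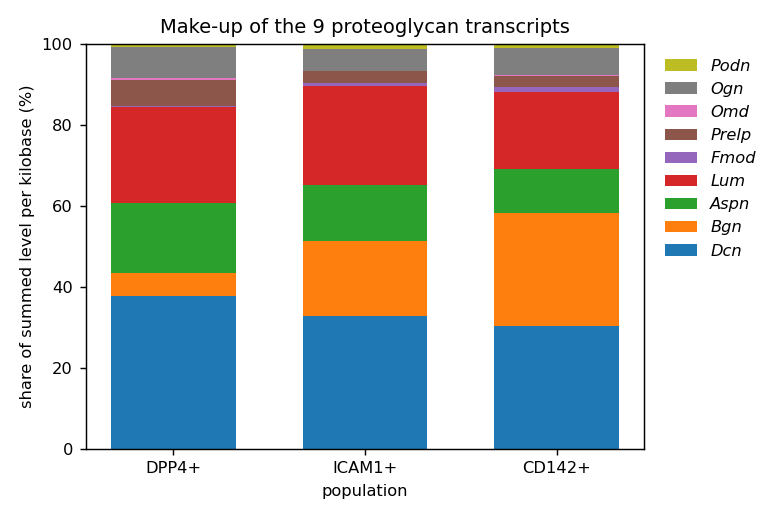
Share of each gene in the summed level of the 9 genes (percent, per kilobase of merged exons), 1 stacked bar per population. The share of Bgn is 5.74% in DPP4+ and 27.9% in CD142+ cells, while that of Dcn is 37.8% and 30.2%.

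Of the 9 other family members listed, Ecm2 and Tsku were expressed at levels near those of Podn. Ecm2, which lies 11.7 kb before Aspn on the same strand, had 546, 1050 and 1502 normalised counts in DPP4+, ICAM1+ and CD142+ cells. Its log2 fold change was 0.94 ± 0.13 in ICAM1+ (adjusted p = 3.75e-11) and 1.46 ± 0.13 in CD142+ against DPP4+ cells (adjusted p = 2.17e-26), so Ecm2 was higher where its neighbour Aspn was lower. Ecm2, Aspn, Omd and Ogn all lie within Cenpp on the other strand, whose exons share 7 bases with those of Aspn, and Cenpp had a log2 fold change of -0.41 ± 0.14 in ICAM1+ against DPP4+ cells (adjusted p = 0.0136). Tsku, a secreted inhibitor of WNT and BMP signals, had 713, 254 and 434, and was lower in ICAM1+ than in DPP4+ (-1.49 ± 0.16, adjusted p = 3.17e-19) and CD142+ cells (-0.77 ± 0.16, adjusted p = 5.29e-05). Kera, Epyc, Optc, Nyx and Podnl1, members known from cornea, cartilage and eye or little described, had means of at most 13.0 and no called difference. Nyx and Podnl1 had no adjusted p in ICAM1+ against CD142+ cells, and Nyx had none in CD142+ against DPP4+ cells. Chadl had 45.1, 50.5 and 44.7 normalised counts and was not called. Chad (chondroadherin) was called higher in both comparisons against DPP4+ cells, but at levels of 1.11, 14.0 and 11.8. In all, 2 of the 9 were higher and 1 lower in both comparisons against DPP4+ cells. At an unadjusted p below 0.05 in the same Wald test, 3 were higher in CD142+ against DPP4+ cells, the added gene being Epyc (2.54 ± 1.06). In ICAM1+ against CD142+ cells 0 were higher and 2 lower (unadjusted p below 0.05, 0 higher).

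The enzymes that build the sugar chains differed in part. Their counts, and those of the lists below, stand beside the shares called over all genes tested. These shares were 24.4% in ICAM1+ against DPP4+, 19% in CD142+ against DPP4+ and 9.05% in ICAM1+ against CD142+ cells. Of 6 enzymes of the linkage region, the short stretch that joins a chain to its protein, 1 was lower in ICAM1+ than in DPP4+ cells (B3gat3, -0.59 ± 0.20, adjusted p = 0.0174), and none was called in the other comparisons, where the same Wald test had 1 and 0 higher and 0 and 1 lower at an unadjusted p below 0.05. Of 14 enzymes of chondroitin and dermatan sulfate chains, 3 were higher and 6 lower in ICAM1+ than in DPP4+ cells, with a median of -0.43. In CD142+ against DPP4+ cells 3 were higher and 5 lower (median 0.13), and in ICAM1+ against CD142+ cells 0 were higher and 4 lower (median -0.24, unadjusted p below 0.05 in 1 higher). The sulfotransferase Chst11 was higher in ICAM1+ (219) and CD142+ (199) than in DPP4+ cells (77.4), by 1.50 ± 0.22 and 1.36 ± 0.22 on the log2 scale. Chst12, which acts on the same position of the sugar, was lower in ICAM1+ than in DPP4+ cells (168 against 464, -1.47 ± 0.18). Of 5 measured enzymes of keratan sulfate chains, the kind that lumican, fibromodulin and osteomodulin carry, 0 were higher and 3 lower in ICAM1+ than in DPP4+ cells (unadjusted p below 0.05 in 0 higher), and 0 were higher and 1 lower in each of the other comparisons (unadjusted p below 0.05 in 1 and 0 higher). Chst1, the sulfotransferase for galactose in these chains, had 344 normalised counts in DPP4+, 56.5 in ICAM1+ and 43.4 in CD142+ cells (-2.61 ± 0.30, adjusted p = 3.05e-16, and -2.99 ± 0.31, adjusted p = 7.85e-21). Fmod was thus lowest and Chst1 highest in DPP4+ cells, but Omd was lowest in ICAM1+ cells and Lum was called in no comparison. B4galt1, the enzyme of this list with the highest mean, had 1904, 2061 and 2290 normalised counts and was also called in no comparison.

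Among the collagens that these proteoglycans bind, more were lower than higher in ICAM1+ cells. Of 13 collagen genes, 4 were higher and 7 lower in ICAM1+ than in DPP4+ cells (median -0.43), 4 were higher and 4 lower in CD142+ than in DPP4+ cells (median 0.08), and in ICAM1+ against CD142+ cells 1 was higher and 6 lower (median -0.19). Col14a1, a collagen on the surface of fibrils, had log2 fold changes of -1.73 ± 0.14 in ICAM1+ against DPP4+ (adjusted p = 4.5e-35) and -1.30 ± 0.14 against CD142+ cells (adjusted p = 3.56e-19). Col6a3, a chain of the collagen VI microfibrils that bind decorin and biglycan, was higher than in DPP4+ cells by 1.06 ± 0.09 in ICAM1+ (adjusted p = 6.07e-28) and 0.89 ± 0.09 in CD142+ cells (adjusted p = 1.13e-19). The other listed chains differed less, Col6a1 by 0.33 ± 0.12 and 0.27 ± 0.12 and Col6a2 by 0.46 ± 0.12 and 0.38 ± 0.12. Col6a1 was not called in CD142+ against DPP4+ cells (adjusted p = 0.0901). Of 12 genes of collagen processing and cross-linking, 1 was higher and 7 lower in ICAM1+ than in DPP4+ cells, 4 were higher and 6 lower in CD142+ than in DPP4+ cells, and 6 lower and 1 higher in ICAM1+ against CD142+ cells. Bmp1, the protease that removes the propeptides of fibrillar collagens and also of biglycan, had 9800, 4144 and 5825 normalised counts in DPP4+, ICAM1+ and CD142+ cells. All 3 differences of Bmp1 were called. Pcolce2, which encodes an enhancer of procollagen processing, had 3334, 293 and 787, a log2 fold change of -3.51 ± 0.13 in ICAM1+ against DPP4+ cells (adjusted p = 2.49e-161).

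Proteases that cut these proteoglycans differed in both directions, with 3 of 8 higher and 2 lower in ICAM1+ than in DPP4+ cells, 4 higher and 2 lower in CD142+ than in DPP4+ cells, and 3 higher and 3 lower in ICAM1+ against CD142+ cells. Mmp3 (stromelysin 1), which cleaves decorin and biglycan among many substrates, had 68.2 normalised counts in DPP4+, 1251 in ICAM1+ and 2730 in CD142+ cells, the order also found for Bgn and Fmod. The aggrecanases Adamts4 and Adamts5 had opposite orders. Adamts4 had 1275, 5800 and 4287 (2.19 ± 0.13 in ICAM1+ against DPP4+, adjusted p = 7.72e-60), and Adamts5 had 4909, 866 and 1428 (-2.50 ± 0.12, adjusted p = 1.66e-91). Of 12 growth factors and receptors bound by the family, 4 were higher and 5 lower in ICAM1+ than in DPP4+ cells, 3 higher and 5 lower in CD142+ than in DPP4+ cells, and 2 higher and 4 lower in ICAM1+ against CD142+ cells. The receptors of free biglycan, Tlr2 and Tlr4, were highest in DPP4+ cells, where Bgn was lowest. Between ICAM1+ and CD142+ cells Bgn was called, but neither receptor was (adjusted p = 0.371 and 0.253). Tlr2 had 590 normalised counts in DPP4+, 163 in ICAM1+ and 202 in CD142+ cells (-1.85 ± 0.17 and -1.55 ± 0.17 against DPP4+, adjusted p = 3.89e-25 and 9.65e-19), and Tlr4 had 301, 101 and 136 (-1.58 ± 0.21 and -1.14 ± 0.21, adjusted p = 2.27e-12 and 4.38e-07). Met, which decorin binds, was lower in ICAM1+ than in DPP4+ cells (-1.75 ± 0.21, adjusted p = 6.09e-16). The matricellular genes Ccn4 and Ccn2 were highest in CD142+ cells, Ccn4 with 56.9, 140 and 399 and Ccn2 with 418, 435 and 1300 normalised counts. Ccn2 was called in CD142+ against DPP4+ (1.64 ± 0.13, adjusted p = 3.24e-33) and not in ICAM1+ against DPP4+ cells (0.06 ± 0.14, adjusted p = 0.823). Re-centring all fold changes on the median of those 7952 more abundant genes moved 12 of the 48 counts given for these lists of other family members, enzymes and partners, each by 1 gene.

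**Figure D4:**
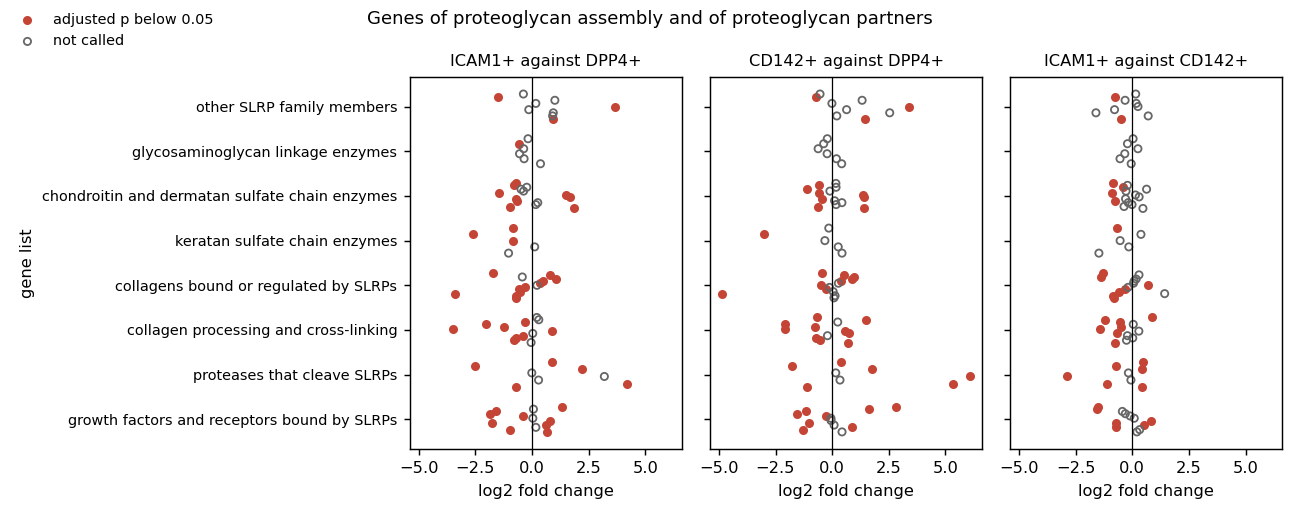
Log2 fold changes (x axis) of the genes in each list of other family members, chain enzymes, collagens and partners, 1 panel per comparison and 1 point per gene; filled points have an adjusted p below 0.05. Enzymes of keratan sulfate chains with a call lie left of 0 in ICAM1+ against DPP4+ cells, and proteases lie on both sides.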

How the data were processed

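RNA sequencing of 9 libraries, 3 each of DPP4+, ICAM1+ and CD142+ cells, was grouped by sorted population. STAR 2.5.2a, DESeq2 without a version, R 3.5.1 and the build mm10 are named in the submitters' processing notes. The annotation release and the strand setting are not given in the sources used here. What the authors deposited are 3 tables of pairwise DESeq2 comparisons, which hold no values per library. The mean over libraries is a signal, counts divided by size factors by the authors. The log2 fold changes and standard errors were fitted by the authors, and the deposited Wald statistic is a score, the fold change over its error. The p-values were deposited by the authors with Benjamini-Hochberg adjustment, which adjustment over the genes with an adjusted p returned within 2.28e-15. Genes with no adjusted p stayed uncalled.

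The tables carry the authors' own comparisons. These columns are the source of every value here, since the genes were to be read from them, and no count model was fitted. Of 20659 rows, 4 are summary classes of reads that were in no gene, ambiguous, mapped to several places or unmapped. They held 59.6% of the summed means and were left out. All 3 tables gave the same means, and their fold changes added up within 0.01 for 20612 genes, so they were treated as a single fit of 9 libraries. Levels were solved from the mean and the 2 fold changes against DPP4+ cells, and their SE from the 3 deposited errors. With 2 free fold changes and no library values, precision rests on the deposited errors, and depth per library is unknown. The scripts were tested on simulated data.

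Symbols, coordinates and lengths came from GENCODE M21 (GRCm38, also called mm10), which matched 20618 genes. Promoters came from RefSeq (GRCm38.p6), which held 7 of the 9 genes. The 9 genes and 18 lists of 139 pathway and marker genes were chosen with earlier results of these data known. Named were all 9 genes, from each pathway list up to 3 called genes per comparison ranked by absolute log2 fold change among those averaging 100 or more (or the 2 with the highest mean where fewer than 2 passed), of which a part is described, genes of the same loci, and for each proteoglycan the 3 genes averaging 1000 or more that lay nearest to it by distance on the 2 fold changes against DPP4+ cells. The genes below a mean of 100 among the other family members, B3gat3, Col6a1, Col6a2, the single marker genes, Xist and Ddx3y were named outside this rule. Alternatives were thresholds of 0.01 and 0.1, adjustment over all genes or over those averaging 10 or 100 and more, a required change of 1 on the log2 scale, a Wald test with that size as its null, re-centred fold changes, the longest transcript as length, and levels from the other pair of tables. Python 3.11.15, pandas 2.3.3, numpy 2.4.6, scipy 1.17.1 and matplotlib 3.10.9 were used.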

Additional observations from a re-analysis of the deposited data

How the results depend on the processing

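No paired analysis was possible because the tables hold no values per library. For the same reason, leaving out each library in turn was not run. When a change above 1 on the log2 scale was required, 4 of the 9 genes were called in ICAM1+ against DPP4+ cells, 3 in CD142+ against DPP4+ and 3 in ICAM1+ against CD142+ cells. With that size as the null of the Wald test, the counts were 3, 2 and 1. Both settings ask for a larger change by construction. An adjusted p of 0.01 or 0.1 and adjustment over all genes or over those averaging 10 or more left all 27 calls on their side of the threshold, as did adjustment over those averaging 100 or more for the 24 tests left without Omd. Re-centring subtracted medians of -0.07, -0.05 and -0.02 and turned the sign of 2 that were not called, Dcn and Lum in CD142+ against DPP4+ cells (to 0.0026 and 0.015, adjusted p = 0.995 and 0.971). The longest transcript moved 9 of 27 levels per kilobase, those of Dcn, Bgn and Podn. The other pair of tables gave levels within 1 SE in 27 of 27. The depth of single libraries is unknown, and Omd, with a mean of 93.5, had the widest errors.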

Other observations

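The genes nearest to each proteoglycan in pattern were sought among the 1229 genes averaging 1000 or more, by the distance between their pairs of log2 fold changes against DPP4+ cells, over 3 populations. Ogn was nearest to Col1a1 (distance 0.04), Chpf (0.07) and Col1a2 (0.09), the chains of collagen I and an enzyme of chondroitin sulfate chains. Col1a1 had log2 fold changes of -0.73 in ICAM1+ and 0.08 in CD142+ cells. Bgn was nearest to Cygb, the globin of stromal cells (0.05), the microfibril gene Mfap4 (0.06) and Igfbp4 (0.22), which binds insulin-like growth factors. Cygb had log2 fold changes of 1.53 and 2.52. Nearest to Prelp were St3gal2, Itgb3 and Clec3b (distances 0.09, 0.09 and 0.10), and to Dcn the genes Kif1c, Ctdsp1 and Colgalt1 (0.02, 0.03 and 0.04).

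Fmod and Omd had no close match. The nearest genes to Fmod were Tspan11 (0.51), the neurotrophin receptor Ntrk2 (0.80) and Steap4 (1.07), and to Omd the genes Ecm1 (0.92), Scara3 (0.98) and Col14a1 (1.02). Aspn, Lum and Podn lay nearest to Arhgdia (0.0058), Golph3 (0.02) and Kctd12 (0.09).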
